A study of Homo sapiens with 6 samples.

Results

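The IGF-binding proteins and IGF receptors are 10 genes, taken by name with earlier results of these data known. They are the 7 binding proteins IGFBP1 to IGFBP7 and the receptors IGF1R, IGF2R and INSR. On the bead arrays, 9 of the 10 genes had a probe under their symbol, 10 probes of 24526 in all, 2 of them for IGFBP3. IGFBP1 was not analysed here for want of such a probe. A probe was tested if it was above background (detection p under 0.01) on 3 or more of 6 arrays, as 9 of these 10 probes were. They stand for 8 genes, 6 binding proteins and 2 receptors, among 8186 genes tested.

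Insulin-like growth factors are secreted peptides that drive growth and survival through IGF1R, a receptor tyrosine kinase closely related to the insulin receptor INSR. The binding proteins hold the ligands outside the cell, where they carry them, keep them from the receptor or release them when proteases cut the binding protein. IGF2R has no kinase and removes IGF2 from the cell surface, besides sorting lysosomal enzymes. Human embryonic stem cells are known to use IGF signalling for self-renewal.

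The cells were HES3, a human embryonic stem cell line, in 2 groups of 3 arrays. The first group had 3 days of Activin A, a TGF-beta family ligand used to induce endoderm, together with bone morphogenetic protein 4 (BMP4), and the second had 3 days of Activin A. The dose was 50 ng/ml for each factor per the labels. Their protocol mentions BMP4 for the Activin A samples too, so the grouping rests on titles and source names. In both groups the cells had been kept on irradiated human Ortec feeder cells with FGF2, passed through a strainer that typically took away 90% of the feeders, and plated on fibronectin for 2 days in stem cell medium. The design text calls the replicates biological. The Activin A arrays lay on 1 chip, and the Activin A + BMP4 arrays on 2 others, so chip and treatment cannot be told apart. Probes above background numbered 9348 to 10460 per array. Of 12 listed markers of pluripotent stem cells, 10 were above background on all 6 arrays. Among these, POU5F1, NANOG and SOX2 were lower with BMP4, as given below.

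The comparison asked, member by member, how transcript levels differed when BMP4 was added to Activin A. All 6 measured binding proteins were lower with BMP4 and passed the test, by 1.67-fold to 3.26-fold, and the 2 receptors that could be tested, IGF1R and IGF2R, did not pass. For each of the 6, the arrays of the treatments did not overlap. Over all genes tested, 18.1% were called lower, 17.6% higher and 35.8% either way (limma, Benjamini-Hochberg adjusted p under 0.05). Arrays did not overlap for 25.6% of genes in the lower and 24.6% in the higher direction. Of the 9 member probes 7 passed the test, against 35.4% of all tested probes. A fall of 2-fold or more that passed was seen for IGFBP3, IGFBP4 and IGFBP5, and for 5.4% of all tested genes. IGFBP4 lay at that limit and was short of it in 3 of 16 alternatives, with log2 differences of -0.92 without Activin A replicate 2, -0.96 without Activin A + BMP4 replicate 3 and -0.97 under normexp correction, and IGFBP3 passed it by its brighter probe alone. The median log2 difference of the 6 binding proteins was -0.96, against 0.00193 over all tested genes. Signals below are linear values after background correction and quantile normalization, given for replicates 1, 2 and 3 of each treatment, and each log2 difference is the mean with BMP4 minus the mean without it, with the SE of the fit.

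**Figure D1:**
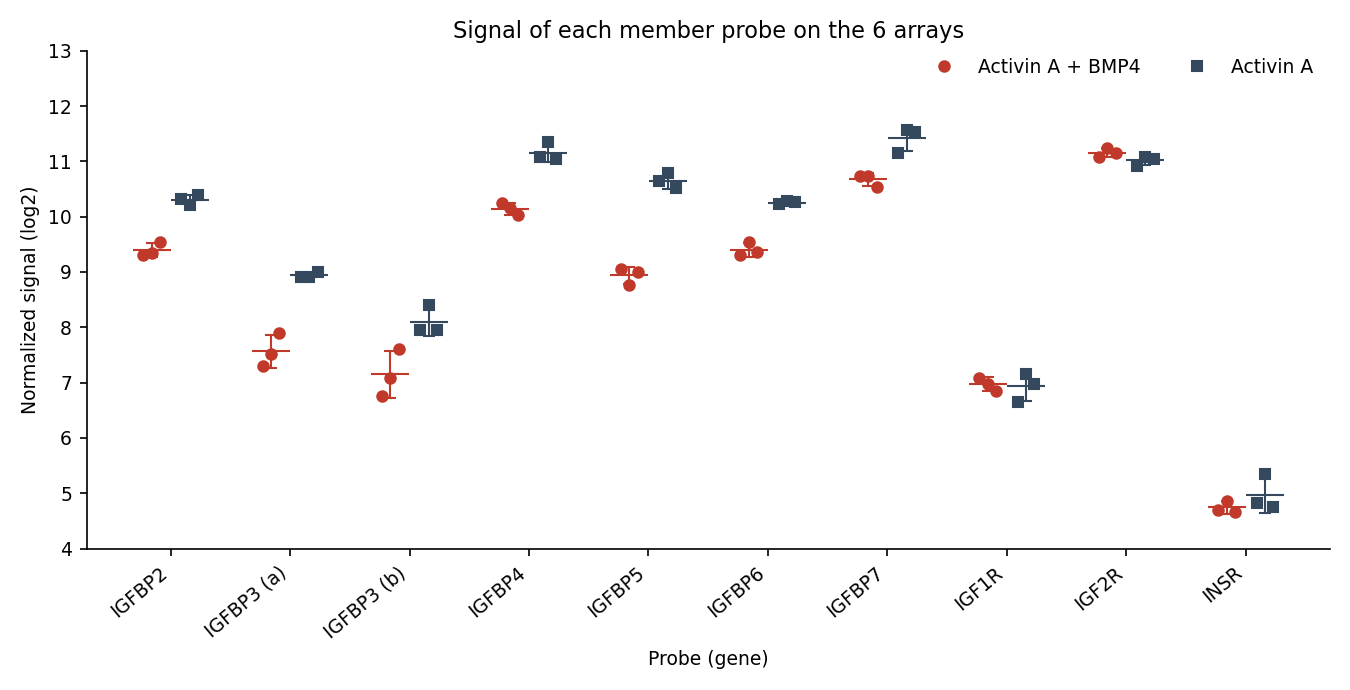
Normalized signal on a log2 scale (vertical axis) of the 10 member probes, with 1 point per array, Activin A + BMP4 as circles on the left and Activin A as squares on the right of each probe, and the mean and SD of 3 arrays as bars. IGFBP3 has a brighter probe (a) and a dimmer one (b). The 7 probes of binding proteins show no overlap between treatments, the points of IGF1R and IGF2R overlap, and INSR was above background on none of the 6 arrays.

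IGFBP5, a binding protein that also attaches to extracellular matrix, had the largest difference of the members. Its normalized signal was 531, 433 and 513 with Activin A + BMP4, against 1594, 1764 and 1458 with Activin A. The highest array with BMP4 lay 1.46 log2 units under the lowest without it. The gene was 3.26-fold lower (log2 difference -1.71 ± 0.12 SE, n = 3 arrays each; limma adjusted p = 2.71e-05), and 1.62% of all tested genes had a lower difference than IGFBP5.

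IGFBP3 is the main carrier of IGFs in blood, where it forms a complex with the protein made by IGFALS. By its brighter probe the signal was 157, 182 and 238 with Activin A + BMP4, against 482, 483 and 511 with Activin A. This is 2.60-fold lower (log2 difference -1.38 ± 0.15 SE; limma adjusted p = 2.41e-04). By the dimmer probe the signal was 109, 136 and 194 with Activin A + BMP4, against 248, 339 and 247 with Activin A. That probe was 1.93-fold lower (log2 difference -0.95 ± 0.22 SE; limma adjusted p = 0.0103), with the arrays again without overlap. The probes thus gave the same direction with differences of unlike size. The dimmer probe's log2 difference lay 0.43 above the brighter probe's, which an exact two-sided permutation test over arrays did not separate (p = 0.2, 0.3 after Benjamini-Hochberg adjustment over 3 such pairs, where 0.1 is the smallest unadjusted p that 3 against 3 arrays can give). Both probes were brightest, among the Activin A + BMP4 arrays, on replicate 3, the one that lay on a chip of its own. Without that array the brighter probe's log2 difference was -1.54.

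IGFBP4, known as an inhibitor of IGF action, had signals of 1212, 1148 and 1043 with Activin A + BMP4, against 2158, 2625 and 2112 with Activin A. It was 2.02-fold lower (log2 difference -1.01 ± 0.12 SE; limma adjusted p = 3.76e-04). The treatments were separated by 0.80 log2 units between their nearest arrays.

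The promoters of IGFBP3, IGFBP4 and IGFBP5, the members with the 3 largest falls, are shown beside that of IGF2R, which did not pass the test. Each is the 250 bases before the gene's annotated start in RefSeq (GRCh38.p14), 5′ to 3′ on the gene's strand. Capitals mark GC boxes (GGGCGG, both strands, overlaps counted) and TATA-type motifs within 50 bases of the start. The TATA-type motifs, searched on both strands, were TATAAA, its variant TATATA, and also the variant TATTTA. All were chosen after the sequences had been read.
IGFBP3, chr7:45921273-45921522, minus strand: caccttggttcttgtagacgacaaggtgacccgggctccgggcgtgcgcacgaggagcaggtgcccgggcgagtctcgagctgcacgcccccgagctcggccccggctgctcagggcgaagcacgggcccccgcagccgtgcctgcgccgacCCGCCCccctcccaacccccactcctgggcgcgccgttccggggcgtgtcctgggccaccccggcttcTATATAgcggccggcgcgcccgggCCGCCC
IGFBP4, chr17:40443200-40443449, plus strand: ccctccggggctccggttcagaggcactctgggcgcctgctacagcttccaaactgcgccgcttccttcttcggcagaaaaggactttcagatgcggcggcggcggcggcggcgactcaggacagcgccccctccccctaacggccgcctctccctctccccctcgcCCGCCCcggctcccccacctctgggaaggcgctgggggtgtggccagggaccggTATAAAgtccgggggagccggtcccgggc
IGFBP5, chr2:216695550-216695799, minus strand: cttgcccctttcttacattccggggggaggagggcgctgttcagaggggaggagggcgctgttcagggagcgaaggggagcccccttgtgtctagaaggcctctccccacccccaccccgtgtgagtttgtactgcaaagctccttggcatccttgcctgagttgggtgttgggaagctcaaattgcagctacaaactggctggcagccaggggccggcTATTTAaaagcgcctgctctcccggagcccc
IGF2R, chr6:159968832-159969081, plus strand: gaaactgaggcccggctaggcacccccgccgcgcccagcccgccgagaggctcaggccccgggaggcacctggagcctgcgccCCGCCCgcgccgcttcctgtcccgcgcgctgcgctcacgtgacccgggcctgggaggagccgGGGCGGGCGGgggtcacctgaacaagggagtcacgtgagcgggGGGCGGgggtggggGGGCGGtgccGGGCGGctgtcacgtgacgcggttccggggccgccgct
Each of the 3 binding protein promoters held 1 TATA-type motif, beginning 30 bases before the start in IGFBP3, 29 in IGFBP4 and 31 in IGFBP5. Of 35116 promoters in the table, 6.24% held one in that window. As the motifs were chosen after these sequences had been read, that share is given as background and is not a test. The IGF2R promoter had none, and held 6 GC boxes, a motif found in 42.6% of all promoters over 250 bases. RefSeq entries were matched for 8 of the 10 members, and IGFBP1 and IGFBP7 had none. The IGFBP2, IGFBP6, IGF1R and INSR entries held no TATA-type motif in the window. Of motifs known for SMAD proteins, which carry BMP and Activin signals, the palindrome GTCTAGAC was in no member's entry and in 0.182% of all promoters, and GGCGCC was in those of IGFBP4, IGF1R and INSR and in 16.4% of all. These matches describe letters in a window and were not tied to binding.

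IGFBP2, a binding protein abundant in fetal tissue, had signals of 633, 650 and 743 with Activin A + BMP4, against 1280, 1181 and 1335 with Activin A. It was 1.88-fold lower (log2 difference -0.91 ± 0.11 SE; limma adjusted p = 3.82e-04). IGFBP2 and IGFBP5 are neighbours on chromosome 2 with no protein-coding gene between them in RefSeq, on opposite strands. The log2 difference of IGFBP5 minus that of IGFBP2 was -0.80 (exact two-sided permutation test, p = 0.1, the smallest possible, and 0.3 adjusted over the 3 pairs). IGFBP3 has a like neighbour in IGFBP1 on chromosome 7. The difference of IGFBP3 minus that of IGFBP4, on another chromosome, was -0.36 (exact two-sided permutation test, p = 0.3, and 0.3 adjusted).

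IGFBP6, which prefers IGF2 as its ligand, had signals of 630, 747 and 658 with Activin A + BMP4, against 1193, 1240 and 1223 with Activin A. The Activin A arrays were close to each other, with an SD of 0.028 on the log2 scale. IGFBP6 was 1.80-fold lower (log2 difference -0.85 ± 0.11 SE; limma adjusted p = 4.21e-04).

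IGFBP7, a secreted relative with low affinity for IGFs, had the smallest fall of the 6. Its signals were 1709, 1710 and 1491 with Activin A + BMP4, against 2276, 3037 and 2952 with Activin A. It was 1.67-fold lower (log2 difference -0.74 ± 0.14 SE; limma adjusted p = 0.00362). The lowest array with Activin A was replicate 1, which still lay 0.41 log2 units above the highest array with BMP4.

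**Figure D2:**
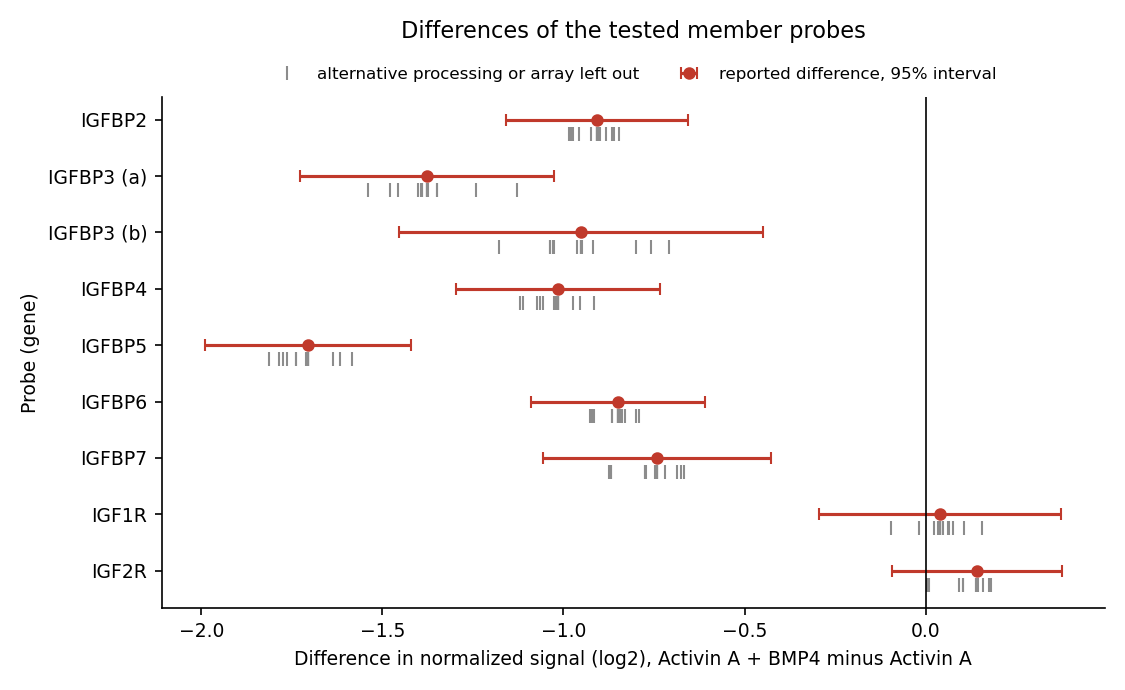
Log2 difference in normalized signal, Activin A + BMP4 minus Activin A (horizontal axis), for the 9 tested member probes, with the 95% interval of the fit as a bar. Grey ticks give the same difference under the alternative settings and with single arrays left out. The intervals of the 7 binding protein probes lie below 0, from IGFBP5 at -1.71 to IGFBP7 at -0.74, and those of IGF1R and IGF2R span 0.

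Neither tested receptor passed the test, and the arrays of the treatments overlapped for both. IGF1R had signals of 136, 126 and 115 with Activin A + BMP4, against 101, 143 and 126 with Activin A. The log2 difference was 0.04 ± 0.15 SE (limma adjusted p = 0.853). Its 95% interval, -0.29 to 0.37, was wider than that of IGF2R, and its SE was close to that of the brighter IGFBP3 probe. The IGF1R difference turned to -0.02 without Activin A + BMP4 replicate 1 and to -0.10 without Activin A replicate 1. IGF2R had signals of 2164, 2409 and 2288 with Activin A + BMP4, against 1934, 2170 and 2118 with Activin A. The difference was 0.14 ± 0.10 SE with an interval of -0.09 to 0.38 (limma adjusted p = 0.321), so a fall as large as that of any binding protein lies outside the interval of either receptor. With median scaling in place of quantile normalization the IGF2R difference was 0.00308. The INSR probe was above background on none of the 6 arrays, with deposited signals of -6.7, 1.9 and -9.0 with Activin A + BMP4, against 0.8, 22.2 and -2.5 with Activin A. No fold is given for it.

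**Figure D3:**
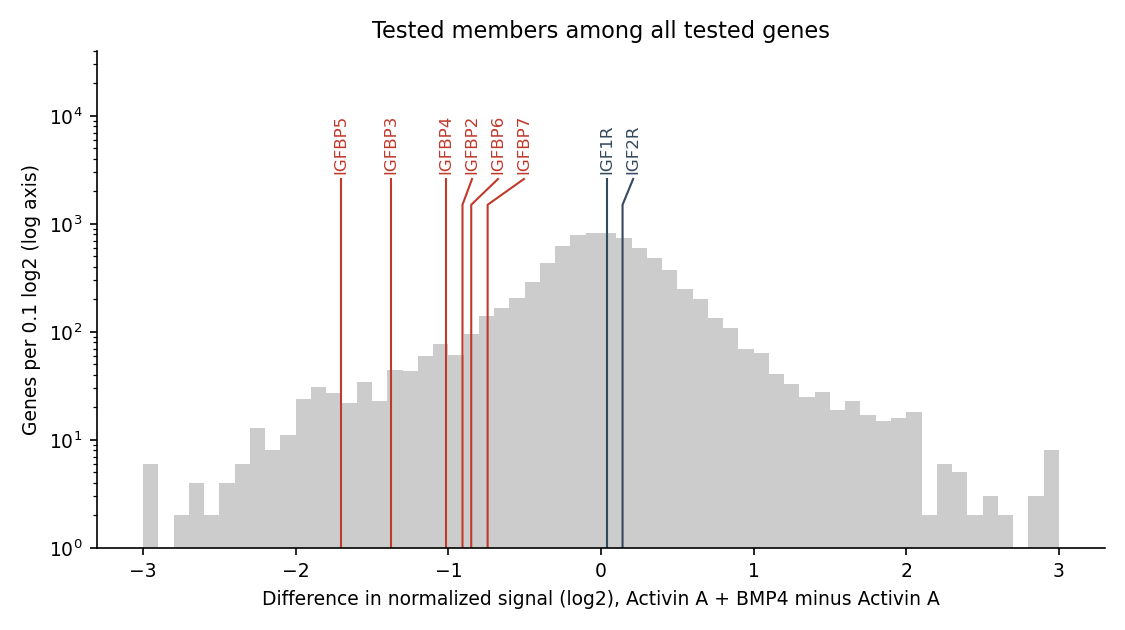
Histogram of log2 differences of 8186 tested genes (grey; horizontal axis Activin A + BMP4 minus Activin A in log2 units, values beyond 3 placed in the end bins; vertical axis genes per bin, log scale), with lines at the 8 tested members. The 6 binding proteins (red, past the threshold) lie in the lower tail, where 1.62% of genes lie below IGFBP5 and 8.16% below IGFBP7, and IGF1R and IGF2R (dark) lie near the middle.

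By likeness of profile, the genes nearest to IGFBP5 were S100A6, a calcium-binding protein gene, MMP3, which encodes the matrix protease stromelysin, and GRAMD2B. Likeness is the Euclidean distance between log2 values centred on each gene's mean over the 6 arrays, and the distances were 0.17 for S100A6, 0.19 for MMP3 and 0.22 for GRAMD2B among 8185 genes. Their log2 differences were -1.79, -1.60 and -1.71. The genes nearest to IGF2R, the member with the highest difference, were CDC42SE1, C19orf25 and TM9SF2, at distances of 0.06, 0.08 and 0.08. Their differences were 0.12, 0.11 and 0.16, and none of them passed the test (limma adjusted p = 0.369, 0.421 and 0.250). All 6 arrays of both treatments enter this measure, so genes with a like difference between treatments come out near.

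Ligand transcripts were at or near background. IGF1 and INS were above background on none of the 6 arrays. Of the IGF2 probes, 1 was above background on no array, and the other had deposited signals of 22.8, 22.4 and 20.4 with Activin A + BMP4, against 43.7, 47.0 and 33.8 with Activin A. Only Activin A replicate 2 reached the detection threshold, so IGF2 was not tested. Both probes of the INS-IGF2 readthrough were above background on no array.

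A list of 8 genes held the proteases that free IGFs from binding proteins, the proteins that restrain these proteases, and IGFALS. Of these genes 5 were tested, and all 5 were lower with BMP4 (18.1% of all tested genes were), with a median log2 difference of -0.77. PAPPA encodes pappalysin, the protease that cuts IGFBP4 and IGFBP5. It was 2.27-fold lower, with mean log2 signals of 9.01 with Activin A + BMP4 and 10.19 with Activin A (log2 difference -1.18 ± 0.12 SE; limma adjusted p = 1.45e-04). STC2 and STC1, stanniocalcins that inhibit pappalysin, were 2.55-fold and 1.67-fold lower (limma adjusted p = 8.67e-05 and 6.99e-04). The serine protease gene HTRA1 was 1.71-fold lower and the metalloprotease gene ADAM9 1.56-fold lower. The protease PAPPA, its inhibitors and its substrates IGFBP4 and IGFBP5 thus all had lower signals with BMP4. PAPPA2, ADAM12 and IGFALS were above background on no array.

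Among secreted proteins related to the binding proteins by their IGFBP-type domain, 3 of 6 listed genes were tested. Of these 2 were lower, as were 18.1% of all tested genes. CCN1 was 2.62-fold lower (log2 difference -1.39 ± 0.12 SE; limma adjusted p = 6.99e-05) and CCN2 1.49-fold lower (limma adjusted p = 0.00276). CCN3 was above background on no Activin A + BMP4 array and on all 3 Activin A arrays, through which alone it entered the test. It did not pass (limma adjusted p = 0.0557), with a bound of 1.41-fold lower (1.22-fold under normexp correction). CCN3 passed under normexp correction, under median scaling and without Activin A replicate 1 (limma adjusted p = 0.0407, 0.0394 and 0.0113). Such a bound sets the Activin A mean against, on each BMP4 array, the lowest value of a detected probe or the probe's own if higher. It carries no sampling error.

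Downstream of the receptors, the shares of genes called are to be read against the 17.6% of all tested genes called higher and the 18.1% called lower. The 7 tested adaptor genes had a median log2 difference of -0.40, with 3 called lower and 1 called higher. GRB10, an adaptor that restrains IGF1R and insulin receptor signalling, was 1.68-fold higher (log2 difference 0.75 ± 0.11 SE; limma adjusted p = 0.00111), and its other tested probe gave 0.71. SHC1, an adaptor towards the RAS pathway, was 1.55-fold lower (limma adjusted p = 0.00472) by the probe with the higher mean. A second tested SHC1 probe had a log2 difference of -0.12 (limma adjusted p = 0.627). GRB14, a relative of GRB10, was 1.57-fold lower (limma adjusted p = 0.0139), a call lost without Activin A + BMP4 replicate 2 or Activin A replicate 1 (limma adjusted p = 0.0515 and 0.0518). IRS1, the docking protein of both receptors, was 1.44-fold lower (limma adjusted p = 0.0225), a call lost without Activin A replicate 2 (limma adjusted p = 0.0719). IRS2 had a log2 difference of -0.40 (limma adjusted p = 0.0501) and passed without Activin A + BMP4 replicate 2 (limma adjusted p = 0.0251). It also passed under normexp correction, cyclic loess normalization and a filter for detection on all 6 arrays (limma adjusted p = 0.0279, 0.0472 and 0.0371).

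PI3K, AKT and mTOR signalling carries the receptors' signal inside the cell. Its 13 tested genes had a median log2 difference of -0.19, with 3 called higher, 4 called lower and 6 without a call, against the same 17.6% and 18.1% of all genes. TSC1, which holds mTOR in check, was 2.05-fold higher (log2 difference 1.04 ± 0.18 SE; limma adjusted p = 0.00247). INPPL1, a lipid phosphatase gene, was 1.66-fold higher and the kinase gene AKT1 1.41-fold higher. AKT1 had 3 probes, and its value is that of the tested one with the highest mean. The kinase gene GSK3B was 1.45-fold lower and FOXO1, a transcription factor held back by AKT, 1.43-fold lower. Of the IGF2 mRNA-binding proteins, IGF2BP3 was 1.26-fold lower (limma adjusted p = 0.0447), a call lost in 8 of 16 alternatives, and IGF2BP2 differed by 0.19 (limma adjusted p = 0.245). The 6 pathway lists together held 30 tested genes, of which 15 fell and 4 rose, and their median was -0.42. Over the 16 alternatives the number that fell ran from 11 to 17, and 4 rose in each. The detection filters also changed how many were tested.

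**Figure D4:**
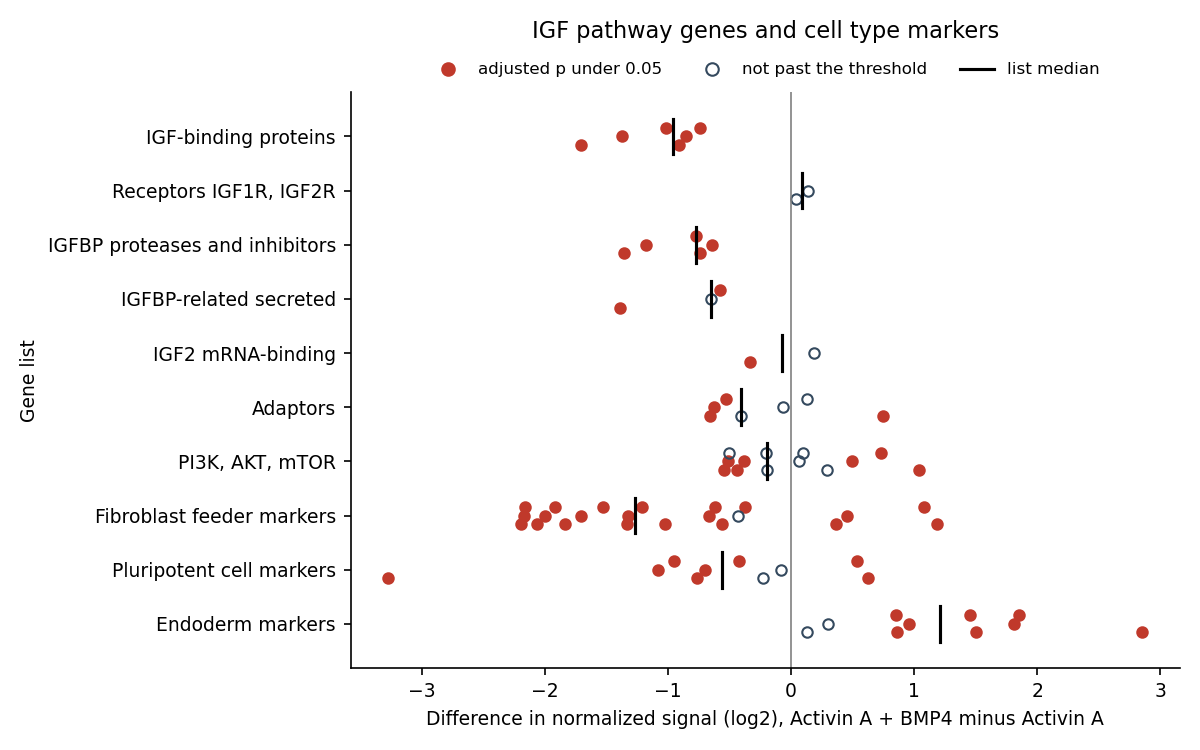
Log2 difference, Activin A + BMP4 minus Activin A (horizontal axis), of each tested gene in the member groups, the IGF pathway lists and 3 marker lists (rows), filled where the adjusted p was under 0.05, with the list median as a black line. All 6 binding proteins and all 5 tested proteases and inhibitors lie left of 0, the feeder markers have a median of -1.27, and the endoderm markers one of 1.21.

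Fibroblasts are known to secrete several of these binding proteins, and the fibroblast markers, listed because the cells came from feeder culture, moved with the treatments as well. Of 22 tested markers, 17 fell, 4 rose and 1 had no call, where 18.1% of all tested genes were called lower and 17.6% higher. The markers' median log2 difference was -1.27. Their summed normalized signal ran between 52650 and 55881 on the Activin A + BMP4 arrays, against 84574 to 98973 on the Activin A arrays. THY1, LOX and PRRX1 were 4.48-fold, 4.58-fold and 4.46-fold lower, and POSTN was above background on no array. The markers that rose were COL5A2, CCL2, FBLN1 and COL5A1, by 2.27-fold, 2.12-fold, 1.37-fold and 1.29-fold. FBLN1 had 5 probes, and its value is that of the tested one with the highest mean. The difference of IGFBP5 lay beyond that median, and those of IGFBP4, IGFBP2, IGFBP6 and IGFBP7 were smaller. IGFBP3 lay beyond it by its brighter probe (-1.38) and short of it by its dimmer probe (-0.95). The brighter probe was also short of the markers' median without Activin A + BMP4 replicate 1 (-1.24 for both to 2 decimals) and under normexp correction (-1.13 against -1.22). The part of the feeders in these falls was not tested, and in RNA from whole cultures fewer cells of a type and less RNA per cell cannot be told apart.

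Markers of the stem cell derived cells differed in both directions. The counts are to be read against 17.6% of all tested genes called higher and 18.1% called lower. Among pluripotency markers 6 of 10 tested were lower and 2 higher (median -0.56), with summed signals of 20253 to 22575 with Activin A + BMP4, against 25417 to 26536 with Activin A. Of 10 tested endoderm markers, 8 were higher and 0 lower (median 1.21), with sums of 22833 to 24100 against 8472 to 8975. SOX17, a factor of definitive endoderm, had a log2 difference of 2.85 and EOMES one of 1.81. GATA4, above background only with BMP4, had a bound of 2.57-fold higher (1.79-fold under normexp correction). FOXA2, by its tested probe with the highest mean, and HHEX did not pass. Their log2 differences were 0.13 and 0.30 (limma adjusted p = 0.386 and 0.194). Of 5 tested trophoblast markers 3 were higher and 1 lower, with sums of 2191 to 2399 against 1081 to 1440. The transcription factor genes HAND1 and TFAP2A had log2 differences of 1.67 and 0.63. GATA3, above background only with BMP4, had a bound of 1.81-fold higher (1.41-fold under normexp correction). The bounds of GATA4 and GATA3 varied with the background correction and carry no sampling error. TFAP2A passed by its probe with the highest mean alone. Its other tested probes gave 0.19 and 0.49 (limma adjusted p = 0.634 and 0.116). KRT7, a keratin gene above background only without BMP4, had a bound of 1.36-fold lower (1.18-fold under normexp correction). Its call (limma adjusted p = 0.0323) was kept in 7 of 15 alternatives. It was lost when any array but Activin A + BMP4 replicate 1 was left out (limma adjusted p up to 0.101). It was also lost without background correction (limma adjusted p = 0.0536) and without the detection filter (limma adjusted p = 0.0672). KRT7 passed that filter only through the Activin A arrays, and GATA3 and GATA4 only through the Activin A + BMP4 arrays. Without the filter GATA3 and GATA4 kept their calls. Of the hormone genes of that lineage, CGA and CGB5 were above background on no array and CGB3 on 2. Of 5 tested endothelial markers 3 were higher and 1 lower, with sums of 2838 to 3222 against 1493 to 1737. VWF, SOX18 and TEK, above background on all 6 arrays, had log2 differences of 1.00, 0.93 and 0.92, and ESAM had one of -0.73. ESAM no longer passed when Activin A replicate 1 was left out (limma adjusted p = 0.0532), nor when replicate 2 was (limma adjusted p = 0.0549). PECAM1, CDH5 and ERG were above background on no array. The part of these cell types in the members' differences was not tested.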

How the data were processed

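Biotin-labelled RNA of 6 HES3 cultures was hybridised to Illumina bead arrays. Per the file headers, the deposited intensity values are non-normalized. Between 22.2% and 24.6% of them were below 0 on each array, so some background subtraction came first. A deposited score accompanies each intensity, headed as detection. Since it increased with intensity (lowest Spearman correlation over an array's probes 0.980), detection p was taken as 1 minus the score. The authors' processed log2 values served as an alternative. For 6507 bright probes, log2 intensity with 1 constant added per probe and 1 per array gave the same values within 1.20e-06, which settles scale and direction, while the baseline of each probe stays unknown. The array medians of these values lay between -0.147 and 0.147. No label used here names the scanner software.

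Signals were corrected and quantile-normalized with neqc (offset 16) in limma 3.58.1 under R 4.3.3. Tested were 10116 of 24526 probes. The platform annotation gave 1 symbol for 21834 probes, none for 2692 and several for 0, and 21813 gene IDs matched RefSeq. The probe with the highest mean stood for a gene. Treatments were compared with lmFit and eBayes, two-sided, and p-values were adjusted by Benjamini-Hochberg across the tested probes, with a threshold of 0.05. The p-values measure the spread between these arrays, whose number limits the precision. The fit was tested on simulated data. Lists are described by counts and medians, without a set test. Named are all members, up to 3 called genes per list with the largest differences, the genes nearest to IGFBP5 and IGF2R, and others as list members chosen after their values were seen. Members and lists were chosen with earlier results of these data known. Same-numbered arrays did not deviate together (correlations 0.03, -0.03 and -0.05), so numbers were not taken as pairs.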

Additional observations from a re-analysis of the deposited data

How the results depend on the processing

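The 6 binding proteins stayed lower and past the threshold in all 96 comparisons of a binding protein with an alternative (other background corrections, normalizations, detection filters and probe choice, the authors' values, a block, and each array left out). Some of these alternatives had little room to change a result. The probe choice could not change a gene with 1 probe. The detection filters and the block by replicate number left the binding proteins' log2 differences as they were and changed only their p-values. None of these could move IGFBP4 across the 2-fold limit. The members called numbered 6 lower and 0 higher in each of 16 alternatives, and 7 member probes passed in each. Over these alternatives the log2 differences ran between -1.81 and -1.58 for IGFBP5, -1.54 and -1.13 for IGFBP3, -1.12 and -0.92 for IGFBP4, -0.99 and -0.85 for IGFBP2, -0.93 and -0.79 for IGFBP6, and -0.87 and -0.67 for IGFBP7. IGF1R ran between -0.10 and 0.16 and IGF2R between 0.00308 and 0.18, neither past the threshold in any. Genes called higher numbered 1126 to 1277 and genes called lower 1216 to 1341 when single arrays were left out, against 1444 and 1483 over all arrays. A fit with replicate number as a block called 1369 higher and 1358 lower, and changed no member's call. A random block for chip (consensus correlation 0.0149) left the members' calls as they were, but each chip held 1 treatment, so this fit cannot separate chip from treatment. Outside the members, 43 named genes were run under the alternatives. Of 683 such comparisons 655 kept direction and call, 21, in IGF2BP3, GRB14, IRS1, KRT7 and ESAM, no longer passed, and 7, in IRS2 and CCN3, passed where they had not. IGF2BP3 had a limma adjusted p of 0.0745 under the replicate block. Under median scaling, and also under the authors' processed values, 2 feeder markers were called higher in place of 4, and the cause was not tested. No member was above background in 1 treatment only, so no bound was needed for a member. IGF1R was read by 1 dim probe, and INSR and the ligands lay at or near background.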
